A study of Mus musculus with 6 samples.

Results

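Liver-enriched transcription factors are DNA-binding proteins whose combined presence sets up and maintains the gene programme of liver epithelium. The 8 factors described here are Hnf4a, Onecut1, Onecut2, Cebpa, Cebpb, Prox1, Gata4 and Gata6, chosen by name. They are 8 of the 20655 genes named on the array. All probes whose transcript accession maps to one of these symbols were used, which gave 8 probes, 1 for each gene, of 39429 non-control probes. Of these, 7 probes were bright enough to be tested, of 27426 tested in all. The samples were cultures of CD63+ cells sorted from adult mouse liver, CD63 being a tetraspanin of late endosomes that also reaches the cell surface. In 3 samples the liver had been injured with DDC, a porphyrin-inducing compound that damages the biliary tree, and in 3 samples there was no injury. RNA from each sample was labelled with Cy3 and hybridised to 1 Agilent whole-mouse-genome array.

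The labels give no strain, genotype, sex or age, and no dose or duration of DDC. Both groups had been grown in DMEM/F12 with 10% fetal bovine serum, HGF and EGF at 10 ng/ml each, insulin, transferrin, selenium, dexamethasone, nicotinamide and 2-mercaptoethanol. Dexamethasone, a glucocorticoid that supports hepatocyte gene expression in culture, was therefore present in both. Some cultures had also received VEGF and bFGF. The labels name those cultures by codes found in no title, and the treatment may coincide with the no-injury group. The design text of the series calls the 6 samples cell lines, without saying how each was derived. Nothing in the labels says that the samples of a group came from separate animals, so p-values measure the spread between these samples, which may be technical.

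HNF4A, a nuclear receptor, activates a large share of hepatocyte genes and holds epithelial identity. The ONECUT factors (Onecut1 encodes HNF6) act in the liver bud and in bile duct formation, C/EBPα maintains metabolic genes and restrains proliferation, and C/EBPβ takes part in the acute-phase response and in regeneration. PROX1 is needed for hepatoblast migration and marks hepatocytes and lymphatic endothelium, while GATA4 and GATA6 act in endoderm before the liver bud expands.

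Sequence upstream of the start, by RefSeq (GRCm38.p6), was used for 5 of the 8 genes, at 7 start sites. Onecut2, Gata4 and Gata6 were left out of the search, so whether their upstream sequence holds a motif was not tested. The 250 bases before both Hnf4a start sites are shown because these factors are known to control each other's genes. Among the 5 genes searched, Hnf4a is the one with a start site at which another member's motif was found. In textbook accounts the upstream start belongs to the promoter called P2, active in fetal liver and gut, and the downstream start to P1, the adult hepatocyte promoter. Capitals mark motif matches. The first sequence lies at chr2:163506607-163506856 and the second at chr2:163546905-163547154, both on the + strand of GRCm38.p6.
Hnf4a upstream start: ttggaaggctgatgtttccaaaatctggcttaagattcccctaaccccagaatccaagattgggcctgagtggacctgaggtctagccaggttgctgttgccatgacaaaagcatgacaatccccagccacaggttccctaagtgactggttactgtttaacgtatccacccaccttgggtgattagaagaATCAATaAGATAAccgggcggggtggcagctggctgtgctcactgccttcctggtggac
Hnf4a downstream start: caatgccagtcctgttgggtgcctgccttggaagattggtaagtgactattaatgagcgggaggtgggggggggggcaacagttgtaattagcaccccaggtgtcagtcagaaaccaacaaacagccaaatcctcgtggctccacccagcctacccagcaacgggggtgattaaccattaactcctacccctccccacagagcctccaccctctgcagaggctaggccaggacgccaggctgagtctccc

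Both strands were searched for 4 short motifs, ATTGAT for HNF6, AGATAA for GATA factors, TTGCNNAA for C/EBP factors and CAAAGNNCA for HNF4A. The upstream start held ATCAAT, the HNF6 letters read on the other strand, ending 53 bases before the start. It also held AGATAA, ending 46 bases before the start, and these matches did not overlap. The downstream start and the other 5 sites, 1 of Onecut1, 1 of Cebpa, 1 of Cebpb and 2 of Prox1, held none of the 4. Over 32817 promoters of the same length, the HNF6 letters were found in 6.73%, the GATA letters in 9.99%, the C/EBP letters in 9.57% and the HNF4A letters in 5.49%. A match is a description of the letters and not a bound site. The single Hnf4a probe was not assigned to either start.

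Of 43020 non-control spots per array, 65.0% to 74.8% were well above background and 0 were marked as saturated. The 75th percentile of the processed signal was 1441 to 2271 intensity units. No-injury replicates 1 and 3 were not shown to differ by more than the noise of spots repeated on an array. Over 124 probes printed 10 times, chi-square was 128.8 on 123 degrees of freedom (p = 0.342). These replicates were counted as 1 sample. The comparison is therefore of 3 DDC injury samples with 2 no-injury samples. The spread between DDC injury arrays was 3.86 to 13.4 times the spot noise, against 1.02 to 1.69 times between no-injury arrays. The arrays were scanned in 3 sets, none of which mixed the groups, so scan and group cannot be told apart, and DDC injury replicate 1 had a scan day to itself. Cd63, the gene of the sorted protein, was well above background on all 6 arrays, at 3.65 to 4.07 after DDC injury and 3.88 to 3.95 without injury. Levels here and below are log2 processed signals after subtraction of the 75th percentile of the same array, so that 0 is the level of that percentile. Levels of different probes are not compared. By the RefSeq annotation of GRCm38.p6, Hnf4a and Cebpb lie on chromosome 2, Onecut1 on chromosome 9, Onecut2 and Gata6 on chromosome 18, Cebpa on chromosome 7, Prox1 on chromosome 1 and Gata4 on chromosome 14.

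Of the 7 tested members, 3 were lower after DDC injury (Gata6, Onecut2 and Prox1) and 0 were higher, at an adjusted p under 0.05 by limma over all tested probes. Over the whole array 29.3% of the 27426 tested probes passed, 15.5% higher and 13.8% lower, so the members' count is to be read against that share. Cebpa, Cebpb and Gata4 had higher values after DDC injury and did not pass. On the 6 members well above background on all arrays, 2 were called lower, where 14.1% of the 22480 probes with that brightness were. In 5 of these 6 the groups did not overlap over the 6 arrays, as in 65.8% of those probes. Prox1 passed the brightness filter only through its no-injury arrays, so its call is no support for a direction of the group. With all 3 no-injury arrays averaged into 1 sample, 0 members passed (279 probes were called higher and 133 lower in the whole table), and likewise 0 without no-injury replicate 2 or without replicates 1 and 3.

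**Figure D1:**
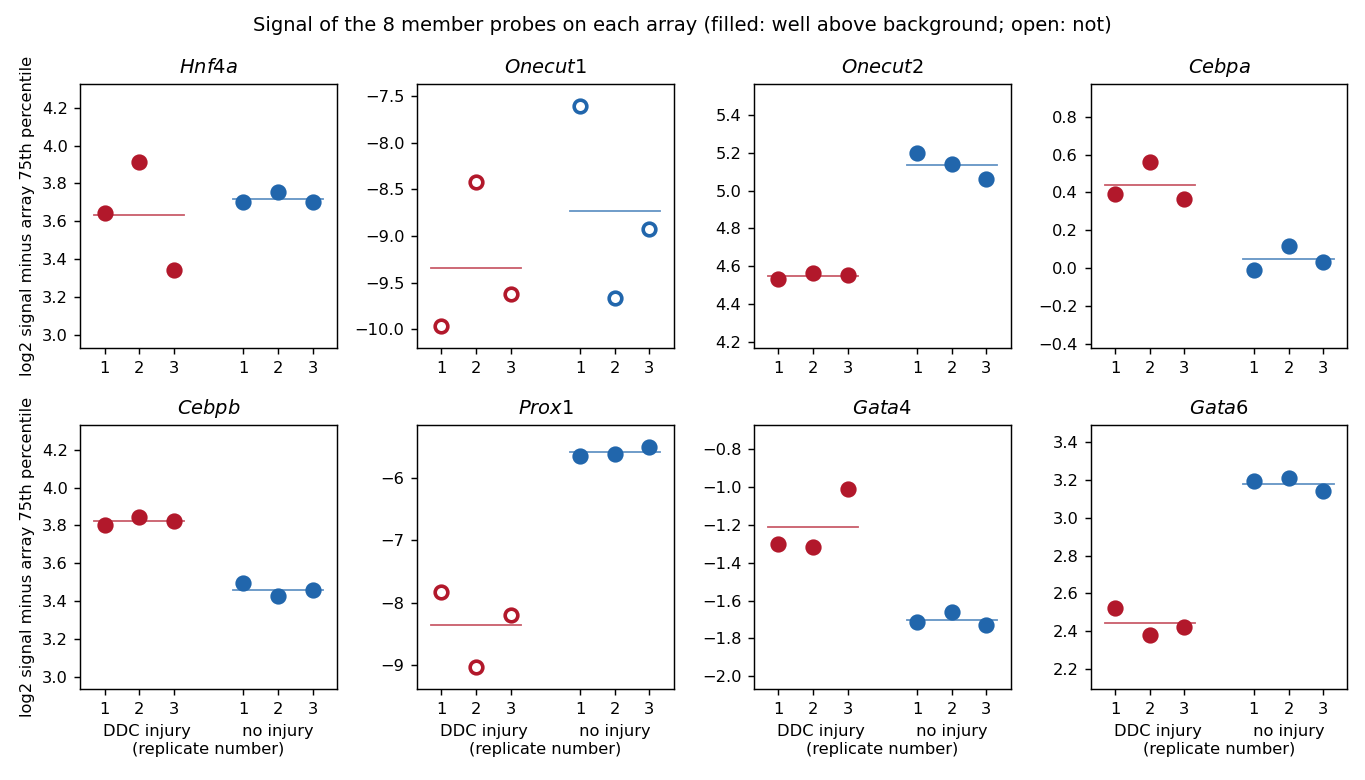
Level of each member probe on each array (log2, relative to the 75th percentile of its array, own axis for each gene), with DDC injury in red, no injury in blue, a line at the mean of the 3 arrays, and open circles where the probe was not well above background. Gata6, Onecut2 and Prox1 lie lower on every DDC injury array, Cebpa, Cebpb and Gata4 lie higher, Hnf4a overlaps between the groups, and all 6 values of Onecut1 are open circles.

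Hnf4a was bright in every culture and was not shown to differ between the groups. Its levels were 3.65, 3.91 and 3.34 on DDC injury arrays 1 to 3, and 3.70, 3.75 and 3.70 on no-injury arrays 1 to 3. The DDC injury values lay on both sides of the no-injury values and spanned 0.57, against 0.05 without injury. The difference was -0.09 ± 0.20 (SE, 3 and 2 samples, 95% interval -0.64 to 0.45, adjusted p = 0.759). As a ratio of DDC injury to no injury, the interval runs from 0.644 to 1.36. Under 20 alternative settings Hnf4a was called in 0, with differences between -0.38 and 0.05.

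Of the ONECUT genes, Onecut2 fell and Onecut1 gave no measurable difference. Onecut1, the HNF6 gene, was dim on all 6 arrays (never well above background) and could not be tested. Its signals were -9.97, -8.43 and -9.63 after DDC injury and -7.61, -9.67 and -8.92 without injury, values that are only bounds. Onecut2, a paralogue with overlapping roles in liver and pancreas development, was bright on all 6. Its levels were 4.53, 4.57 and 4.55 after DDC injury and 5.20, 5.14 and 5.06 without injury, so the groups did not overlap. Onecut2 fell by 0.59 ± 0.10 on the log2 scale (SE, 95% interval -0.85 to -0.32), which is 1.50-fold lower, with an adjusted p = 0.0186.

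The size of the Onecut2 difference depended on how the signal was taken. The processed signals were 52613, 34119 and 36846 intensity units after DDC injury, against 75596, 77770 and 71316 without injury. The median raw signals of the spot were 38926.5, 24495.5 and 25833 against 64899.5, 65497 and 59584, and the no-injury values lie near the top of what such a scanner records. With normexp background correction on the raw signal and the same percentile the difference was -0.84, with quantile normalization -0.79, with both -1.01 and in the authors' deposited table -1.03, and it was called in all 4. It was no longer called without DDC injury replicate 3 (-0.59, adjusted p = 0.0577), with no filter on dim probes (adjusted p = 0.0572) and without either no-injury sample. The part of the near-ceiling raw signals in its size was not tested.

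Cebpa and Cebpb both had higher values after DDC injury, and neither passed the adjusted test. Cebpa was at 0.39, 0.56 and 0.37 after DDC injury and at -0.01, 0.12 and 0.03 without injury. The groups did not overlap, and the difference was 0.37 ± 0.12 (SE, 95% interval 0.05 to 0.70, adjusted p = 0.0879). Cebpb was at 3.80, 3.84 and 3.83 after DDC injury and at 3.50, 3.43 and 3.46 without injury, again without overlap. Its difference was 0.37 ± 0.10 (SE, 95% interval 0.10 to 0.64, adjusted p = 0.0572). Cebpb kept a higher value in all 20 alternatives, between 0.18 and 0.40, and was called in 6 of them. Cebpa ranged from 0.31 to 0.47 and was called in 4. Within an array, Cebpb minus Cebpa was 3.41, 3.28 and 3.46 after DDC injury and 3.50, 3.31 and 3.43 without injury, so the ranges of this ratio overlapped.

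Prox1 had a signal well above background in the no-injury cultures alone. Its levels were -5.65, -5.62 and -5.50 without injury and -7.83, -9.03 and -8.19 on the DDC injury arrays, where the probe was not well above background. On the main scaling, the processed signal less the 75th percentile, the fall was at least 3.57-fold. This bound was measured against the lowest signal that counts as well above background on each DDC injury array. It ran from 3.12 to 4.20 when 1 DDC injury array was left out. The bound holds for that scaling only, as some of the other scalings below gave smaller falls. The measured group means were -8.35 and -5.60 and the fit gave an adjusted p = 0.0124. In raw units the spot medians were 63, 48.5 and 55.5 after DDC injury and 92, 94 and 99 without injury, over local backgrounds of 20 to 22 units and 20 to 21.5 units, so the probe was dim on every array. With normexp and the 75th percentile the difference was -0.29 and did not pass (adjusted p = 0.325), with quantile normalization it was -2.67 and did not pass (adjusted p = 0.0561), with normexp and quantile normalization it was -0.44 and did not pass, and in the authors' deposited table it was -0.77 (adjusted p = 0.0462). Its paralogue Prox2 was at -5.79 to -5.40 after DDC injury and -5.03 to -4.89 without injury (adjusted p = 0.0505), and it was named after its values were seen.

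The endodermal factors differed in opposite directions: Gata6 fell, and Gata4 had higher values that did not pass. Gata6 was at 2.52, 2.38 and 2.42 after DDC injury and at 3.19, 3.21 and 3.14 without injury, without overlap. It fell by 0.75 ± 0.11 (SE, 95% interval -1.04 to -0.45), which is 1.68-fold lower, with an adjusted p = 0.0133. It was called lower in 17 of 20 alternatives, with differences between -0.88 and -0.65, and the 3 without a call were those that left 1 no-injury sample. For scale, 36.5% of tested probes had a larger absolute difference than Gata6 and 46.3% a larger one than Onecut2.

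Gata4 was at -1.30, -1.32 and -1.01 after DDC injury and at -1.71, -1.66 and -1.73 without injury. Every DDC injury value was above every no-injury value, with a difference of 0.48 ± 0.15 (SE, 95% interval 0.09 to 0.87) that did not pass (adjusted p = 0.0748). It passed in 5 of 20 alternatives, and all 20 gave a higher value. Within an array, Gata6 minus Gata4 was 3.82, 3.69 and 3.43 after DDC injury and 4.90, 4.87 and 4.87 without injury. The difference in this ratio was -1.23 on the log2 scale. It was lower after DDC injury under all 4 other ways of scaling the signal, by up to -1.43. The pair was chosen after its values were seen, and the ratio is given as a description.

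**Figure D2:**
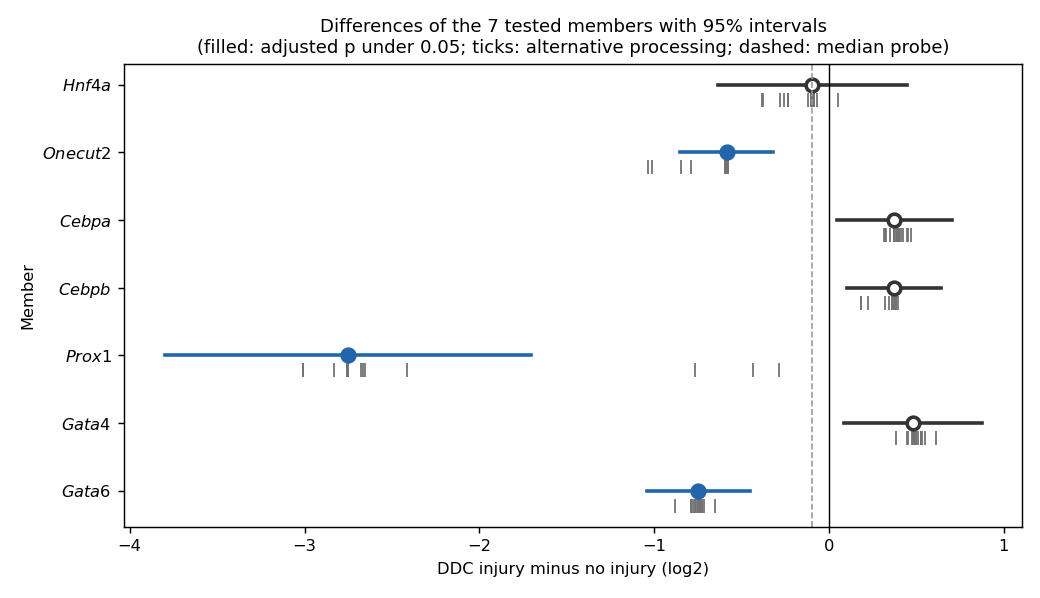
Difference between DDC injury and no injury for the 7 tested members on the log2 scale, with 95% intervals, filled where the adjusted p was under 0.05, grey ticks for the alternative settings and a dashed line at the median of all tested probes (-0.10). The intervals of Gata6, Onecut2 and Prox1 lie below 0, that of Hnf4a spans 0, and the ticks of Prox1 reach -0.29.

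Genes whose profile over the 6 arrays was most like that of Gata6 were sought among 13156 genes that were well above background throughout, by the root mean square distance between profiles centred on their own mean. The nearest were Lrrc8a, a subunit of the volume-regulated anion channel, at 0.016, Diablo, a mitochondrial antagonist of apoptosis inhibitors, at 0.029, and Hip1r, a clathrin adaptor, at 0.032. Their differences were -0.76, -0.78 and -0.74, and each passed, which follows from their being picked by likeness to Gata6. A further probe of Lrrc8a gave -1.03 and did not pass. As 1439 genes lay within 0.2 of Gata6, these 3 are the nearest of many with a like profile.

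The list of other liver-enriched transcription factors holds 40 genes and no member, but includes paralogues of the members such as Gata2 and Gata3. More of its genes fell than rose. Of 33 tested, 3 rose, 8 fell and 22 did not pass, where 16.2% of 15614 tested named genes rose and 14.6% fell. The list's median was -0.60, against -0.07 for all named genes, and its size depended on the scaling. The authors' deposited table gave -0.31, normexp with the 75th percentile -0.17 and normexp with quantiles -0.23. On the 26 of them well above background on all arrays, 2 rose and 8 fell, where 17.9% of 13156 such genes rose and 14.9% fell. Without either no-injury sample, 0 rose and 0 fell. Without DDC injury replicate 3, 0 rose and 7 fell.

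Within the C/EBP family, Cebpd, a partner of Cebpb in early inflammatory responses, fell, in contrast to the higher values of Cebpa and Cebpb. Cebpd was at -1.19, -1.86 and -1.09 after DDC injury and at 2.09, 2.09 and 2.15 without injury. Its fall was 3.49 ± 0.28 (SE, 11.2-fold, adjusted p = 0.00376), and the 4 other scalings gave -3.51 to -3.43. Cebpg did not pass (0.15), and Cebpe was dim on all 6 arrays. Cebpz had no value on the DDC injury arrays and was not tested.

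Within the GATA family, Gata3 and Gata2, known for their roles in lymphoid, blood and trophoblast development, rose. Gata3 was at -0.30, -1.57 and -0.37 after DDC injury and at -2.90, -3.05 and -2.74 without injury. It rose by 2.19 ± 0.46 (SE, 4.56-fold, adjusted p = 0.0302), with DDC injury replicate 2 lowest of its group. Gata2 rose by 2.58 ± 0.47 (SE, adjusted p = 0.0226), but was dim, with 1 no-injury array well above background, and other scalings gave 0.52 to 2.74, of which 3 of 4 were called. Gata5 did not pass (-0.33, adjusted p = 0.617), and Gata1 was dim on all 6 arrays.

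Of the FOXA pioneer factors, which open chromatin at liver genes together with HNF4A, Foxa2 was not shown to differ. Foxa2 was at 3.14, 3.26 and 2.98 after DDC injury and at 3.09, 3.02 and 3.14 without injury, with overlap (difference 0.06 ± 0.13 SE, adjusted p = 0.778). Foxa1 fell by 1.27 ± 0.22 (SE, adjusted p = 0.0188). Foxa3 was lower at -1.43 ± 0.41 (SE) and did not pass (adjusted p = 0.0662), with -1.20 to -0.07 under other scalings. The paralogues Hnf4g and Onecut3 were not well above background on enough arrays to be tested.

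Among the remaining factors Zhx2, a repressor of Afp in adult liver, fell by 1.44 ± 0.11 (SE, adjusted p = 0.0036), between -1.23 and -0.70 under other scalings. Rxra, the partner of PPARα and other nuclear receptors, rose by 0.90 ± 0.23 (SE, adjusted p = 0.048) by its brightest probe, while a dimmer probe gave -0.91 and did not pass. The call on Rxra was lost in 1 of the 4 other scalings, which gave 0.57 to 1.14, and on the second scan day alone (adjusted p = 0.0553). Klf15, Ppara, Nr2f2 and Zbtb20 fell by 3.36, 2.09, 1.20 and 0.96, and these 4, like the paralogues and Foxa genes above, were named after their values were seen.

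**Figure D3:**
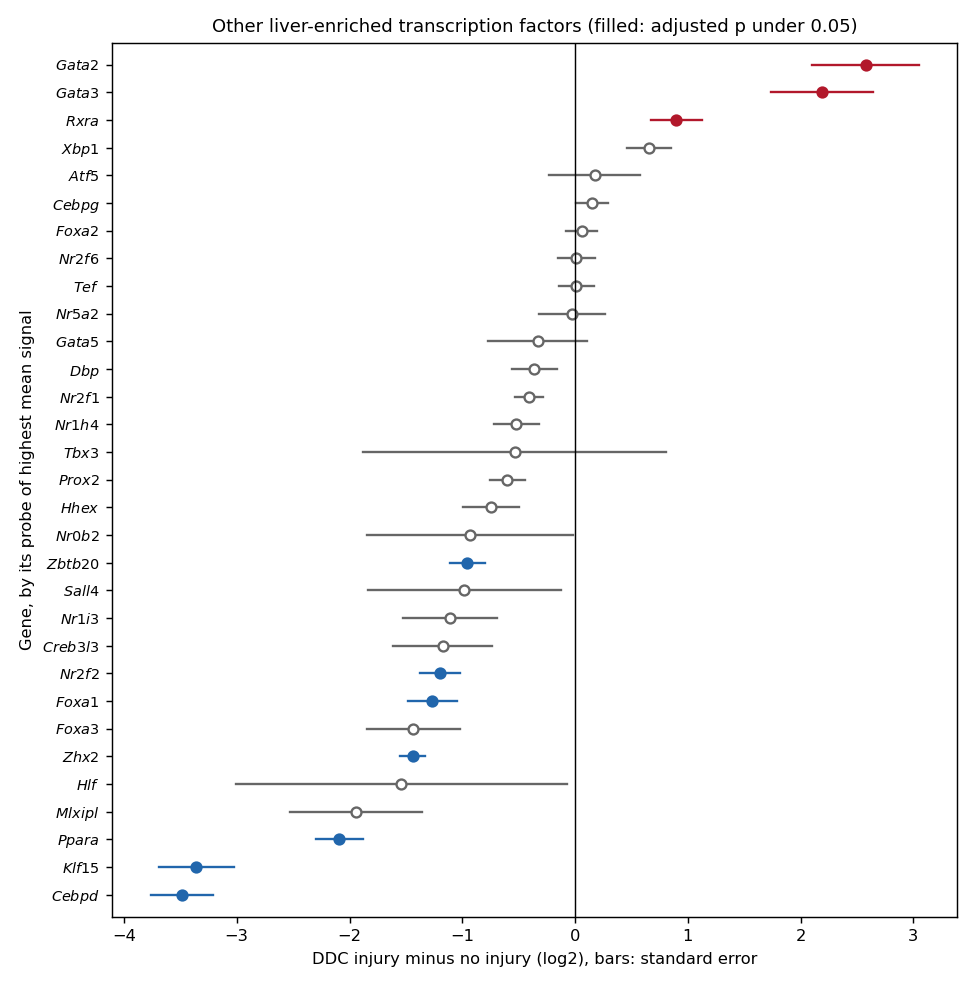
Difference between DDC injury and no injury (log2) for 31 of the 33 tested genes of the list of other liver-enriched transcription factors, with bars of 1 standard error, filled where the adjusted p was under 0.05. Gata2, Gata3 and Rxra are filled above 0, and 7 genes from Zbtb20 (-0.96) to Cebpd (-3.49) are filled below 0.

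Of the cofactors, partners and inhibitors of the 8 factors, 31 were tested, 5 rose, 6 fell and 20 did not pass, with a median of -0.04. That is 16.1% higher and 19.4% lower, near the 16.2% and 14.6% of all tested named genes. Of the 25 well above background on all arrays, 4 rose and 3 fell, where 17.9% of such genes rose and 14.9% fell. Trib2 and Trib1 encode pseudokinases that target C/EBPα for degradation, and both rose. On the main scaling Trib2 was at least 5.16-fold higher (adjusted p = 0.00579), being dim on all no-injury arrays. The smallest of the other scalings gave Trib2 a log2 difference of 0.89, which is less than that bound. Trib1 rose by 0.87 ± 0.16 (SE, adjusted p = 0.0217). Zfpm2, a GATA cofactor also called FOG2, rose by 1.09 ± 0.13 (SE, adjusted p = 0.00809), and its second probe by 0.86. Zfpm1, the FOG1 gene, did not pass (-0.47, adjusted p = 0.137).

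Ppargc1a, which drives gluconeogenic genes with HNF4A, was at -2.01, -1.79 and -2.46 after DDC injury and at -0.48, -0.37 and -0.60 without injury. It fell by 1.64 ± 0.24 (SE, adjusted p = 0.0131). Ppargc1b was at least 2.47-fold lower on the main scaling (adjusted p = 0.00348). It was dim on all DDC injury arrays and passed the brightness filter only through the no-injury arrays. Other scalings gave it log2 differences of -3.43 to -0.41, the smallest fall being less than that bound, and 3 of 4 were called. Ncoa1, a nuclear receptor coactivator, fell by 0.91 ± 0.11 (SE, adjusted p = 0.00853). Without no-injury replicate 2, 0 cofactors rose and 0 fell, and without no-injury replicates 1 and 3, 1 rose and 0 fell. Dropping DDC injury replicate 3 left 2 that rose and 3 that fell. Leaving out DDC injury replicate 2 gave 8 and 5.

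Genes that HNF4A, C/EBP factors or HNF6 are known to activate in hepatocytes fell more often than they rose. Of 41 tested genes, 2 rose, 19 fell and 20 did not pass (4.88% and 46.3%, against 16.2% and 14.6% of all tested named genes), with a median of -1.44, or -1.35 with the 7 genes that were dim throughout a group set at their bound. Of the 19 well above background on all arrays, 2 rose and 7 fell, where 17.9% of such genes rose and 14.9% fell. A further 9 genes of the list, such as Cyp7a1, Otc and Arg1, were dim on all 6 arrays. With normexp and the 75th percentile the median was -0.32, and 15 genes fell.

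Ambp, the precursor of α1-microglobulin and bikunin, fell by 4.40 ± 0.20 (SE, 21.1-fold, adjusted p = 0.00149). Fga, a fibrinogen chain, was at least 22.2-fold lower on the main scaling (adjusted p = 0.00156). Other scalings gave Fga log2 differences of -6.08 to -2.13, the smallest fall being less than that bound. Pzp, a protease inhibitor of the α2-macroglobulin family, fell by 3.38 (-0.996 under the smallest scaling). The genes that rose were Afp, the fetal serum protein, by 2.86 ± 0.26 (SE, 7.24-fold, adjusted p = 0.00482), and Apob, the core protein of lipoproteins, by 0.67 ± 0.12 (SE, adjusted p = 0.0223). Afp was at -0.59, 0.15 and -0.40 after DDC injury and at -3.09, -3.16 and -3.12 without injury. Slc10a1, the bile salt importer, did not pass (0.12 ± 0.20 SE, adjusted p = 0.701) and was bright on all 6 arrays, a gene named after its values were seen. Without no-injury replicate 2, 0 of the list rose and 2 fell, and without no-injury replicates 1 and 3, 0 rose and 1 fell. Dropping DDC injury replicate 3 left 1 that rose and 15 that fell.

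Of the acute-phase and inflammatory genes that C/EBP factors activate, 15 were tested, 2 rose and 2 fell. That is 13.3% in each direction, near the 16.2% and 14.6% of all tested named genes. The median was -0.63, and -0.05 with no filter on dim probes. Crp, a liver acute-phase protein, fell by 6.22 ± 0.13 (SE, 74.6-fold, adjusted p = 0.00107), from 0.74, 0.94 and 0.74 without injury to -5.35, -5.32 and -5.47 after DDC injury. Itih4 fell by 4.08 ± 0.68 (SE, adjusted p = 0.018), between -3.85 and -2.50 under other scalings. Ptgs2, the inducible cyclooxygenase, rose by 3.25 ± 0.36 (SE, adjusted p = 0.00701) and the chemokine gene Cxcl2 by 2.11 ± 0.41 (SE, adjusted p = 0.026; 0.69 to 2.36 under other scalings, 3 of 4 called). On the second scan day alone, which leaves out DDC injury replicate 1, 2 rose and 5 fell, and without DDC injury replicate 2 the counts were 4 and 4. Dropping DDC injury replicate 3 left 1 and 2, and dropping either no-injury sample left 0 and 1.

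Of the genes that GATA4 or GATA6 activate in heart, gut and endoderm, 15 were tested, 2 rose and 5 fell, with a median of -0.09. That is 13.3% and 33.3%, where 16.2% of all tested named genes rose and 14.6% fell. Of the 12 well above background on all arrays, 2 rose and 3 fell, where 17.9% of such genes rose and 14.9% fell. Hnf4a and Foxa2 belong to this list as well. Tff3, a mucosal trefoil peptide, fell by 6.59 ± 0.27 (SE, adjusted p = 0.00125), Ihh, a hedgehog ligand, by 3.46 ± 0.21 (SE, adjusted p = 0.00232), and Wt1, a mesothelial and gonadal factor, fell by 3.30 ± 0.45 (SE, adjusted p = 0.0113). Of these, Tff3 and Wt1 were well above background on 1 DDC injury array each, and other scalings gave -3.73 and -0.94 as their smallest differences. Afp and the laminin chain Lamb1 rose, the latter by 2.29 ± 0.31 (SE, adjusted p = 0.0114). Without no-injury replicate 2, 0 rose and 2 fell, and without no-injury replicates 1 and 3, 0 rose and 1 fell. Dropping DDC injury replicate 3 left 2 that rose and 3 that fell.

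**Figure D4:**
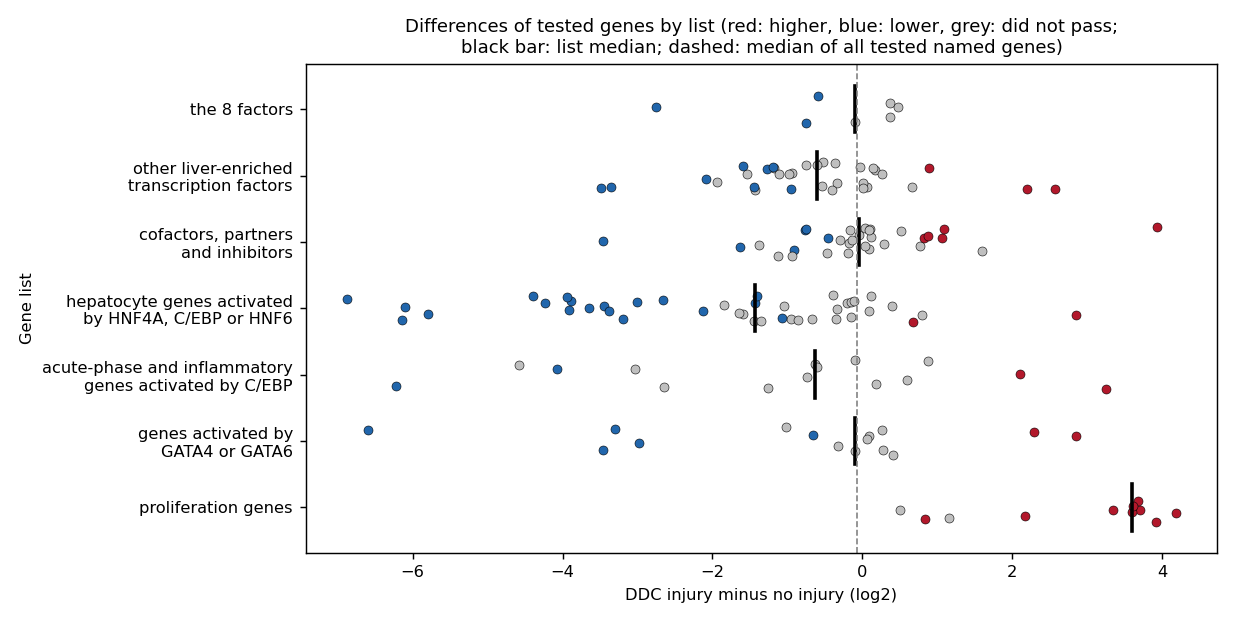
Difference between DDC injury and no injury (log2) for the tested genes of each list, red where higher, blue where lower, grey where the test was not passed, with a black bar at the list median and a dashed line at the median of all tested named genes (-0.07). The median of the hepatocyte target list lies at -1.44 and that of the proliferation list at 3.60, while that of the 8 factors lies at -0.09.

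Proliferation genes were much higher after DDC injury, in the same cultures. Of 11 tested, 9 rose and 0 fell, with a median of 3.60, where 16.2% of all tested named genes rose and 14.6% fell. The called genes included Aurka (3.71 ± 0.11 SE), Plk1 (3.62 ± 0.11 SE) and Mki67 (3.60 ± 0.11 SE), each with an adjusted p = 0.00107. Mki67 was at 3.76, 3.81 and 3.68 after DDC injury and at 0.11, 0.17 and 0.16 without injury. Whether this state has a part in the levels of the 8 factors was not tested.

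Markers of cell types differed between the groups too, and in a bulk culture fewer cells of a type and less RNA per cell cannot be told apart. Summed levels below are sums over a list's probes of the linear signal relative to the array's 75th percentile. Counts of markers are to be read against the 16.2% of all tested named genes that rose and the 14.6% that fell. Hepatocyte markers summed to 1.19 to 3.37 after DDC injury and 18.2 to 22.3 without injury, and of 12 tested 0 rose and 7 fell. All of these markers but Serpina1a also belong to the list of genes that HNF4A, C/EBP factors or HNF6 activate, so the counts are not separate results. Of the 4 well above background on all arrays, 0 rose and 2 fell, where 17.9% of such genes rose and 14.9% fell. Ttr, the transthyretin gene, made up 52.1% to 73.9% of the sum after DDC injury and 85.3% to 87.8% without injury, and the other markers summed to 0.317 to 0.878 and 2.68 to 2.73. Of these 12, Apoa1, Fga and Ahsg were not well above background on any DDC injury array. Cholangiocyte and progenitor markers summed to 51.2 to 56.4 and 64.4 to 66.0, and of 9 tested 0 rose and 4 fell (Epcam, Sox9 and Prom1 among them), while Krt19 and Krt7 did not pass. Spp1 made up 53.8% to 69.3% of this sum after DDC injury and 57.5% to 59.3% without injury. Without Spp1 the sums were 17.3 to 23.7 and 26.9 to 27.5.

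Mesothelial markers summed to 23.5 to 28.9 after DDC injury and 27.6 to 30.0 without injury, with Krt8 left out for a missing value, and of 7 tested 0 rose and 4 fell. Msln, the mesothelin gene, made up 94.4% to 96.4% of the sum after DDC injury and 78.2% to 80.1% without injury, and did not pass (0.15 ± 0.15 SE, adjusted p = 0.496). Without it the sums were 1.05 to 1.34 and 5.85 to 6.02, and the genes that fell were Upk1b, Cdh3, Wt1 and Upk3b. Wt1 was well above background on 1 DDC injury array, and Upk3b passed the brightness filter only through the no-injury arrays. Of the 4 tested markers well above background on all arrays, 2 fell. Stellate and fibroblast markers summed to 0.264 to 1.26 and 0.415 to 0.605, with 1 of 8 called higher (Pdgfra), 0 lower, and Des, Reln, Hgf and Rgs5 dim on all 6 arrays. Endothelial markers, a list that includes lymphatic endothelium, where PROX1 is made, summed to 1.42 to 1.86 and 2.22 to 2.43, with 1 of 12 called higher (Stab1) and 2 lower (Flt4 and Flt1). Leukocyte markers summed to 3.08 to 6.64 and 7.86 to 8.36, with 0 of 10 called higher and 1 lower (Itgam). Itgam fell by its brightest probe (-2.73), while its 2 other probes gave -0.64 and -0.31 and did not pass. The part of the cell type markers in the differences of the 8 factors was not tested.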

How the data were processed

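RNA of 6 cultures (3 DDC injury, 3 no injury) was measured on 1-colour arrays. Feature Extraction 11.0.1.1 quantified the spots, per the file headers. The deposited intensity columns are the background-subtracted, detrended processed signal and the median raw signals of spot and local background. The authors' value table holds log2 values whose columns share their quantiles (medians 6.92 to 6.93). Its starting column is not given in the sources used here, and limma is named without a version in the submitters' processing notes. Normalized across the 6 arrays, the table was used as an alternative.

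Here, log2 processed signals, less the 75th percentile of their array, entered a two-sided fit with lmFit and eBayes (limma 3.58.1 under R 4.3.3; Benjamini-Hochberg over all probes, threshold 0.05). The fit was tested on simulated data. Outlier-flagged spots were left out and repeated spots averaged. A probe was tested if well above background on at least 3 arrays with 2 values per group. Probes were named by accession through RefSeq GRCm38.p6. Of 39429, 27228 had 1 symbol, 0 several and 12201 none. The array's own annotation is of another build. A gene in a list was represented by its probe with the highest mean. Missing values of a probe were left missing. The number of samples limits the precision.

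Normexp used an offset of 50. Named genes are the 8 members, up to 3 genes each way per list by smallest adjusted p, the 3 nearest profiles to the member with the largest called fall among those well above background on every array (no member was called higher), and the cell type markers. Some genes that this rule takes or that belong to a list are counted but not reported here. The members and lists were chosen with earlier results of these data known. Alternatives covered scaling, background correction, filters, replicates, scan, weights and probe choice.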

Additional observations from a re-analysis of the deposited data

How the results depend on the processing

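Over 20 alternatives, no difference between the groups reversed a call, and the proliferation counts stayed within 1.5 times. The cause of the changes below was not tested, except that fewer samples or other numbers of probes enter some fits. Precision is limited by the number of no-injury samples. Averaging all 3 no-injury arrays into 1 sample left few calls: 279 probes were higher and 133 lower, Gata6 (-0.74), Onecut2 (-0.58) and Prox1 (-2.76) were not called, and 0 members were lower. Leaving out a sample gave 292 to 5490 probes higher and 108 to 4839 lower, 0 to 3 members lower and 0 to 1 higher. The differences were then -0.79 to -0.71 for Gata6, -0.59 to -0.58 for Onecut2 and 0.35 to 0.40 for Cebpb. In these fits a lone sample is assumed to vary like the other group.

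With quantile normalization Prox1 (-2.67) was not called and Gata4 (0.55) was, making 1 member higher. Prox1 was also not called with normexp and the 75th percentile (-0.29) or with normexp and quantile normalization (-0.44), where Cebpa (0.45) and Gata4 (0.50) passed and 2 members were higher. In the authors' deposited values Cebpa (0.45) and Gata4 (0.50) passed, again 2 members. With no filter on dim probes Onecut2 (-0.59) was not called and 2494 probes were lower. Cebpb (0.37) passed, as 1 member, among probes well above background on all 6 arrays, with 1 probe per gene (2761 higher, 2462 lower) and with a gene's probes averaged (2694 and 2394). With array weights 3 members were higher, Cebpa (0.33), Cebpb (0.37) and Gata4 (0.61), with 6980 probes higher and 6731 lower.

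With the 6 arrays as separate samples, Cebpa (0.39), Cebpb (0.36) and Gata4 (0.49) passed, 3 members, and 5933 probes were lower. Adding the replicate number as a block (replicate block) to that fit gave 4360 higher and 4200 lower, against 6207 and 5933 without it, and removed those 3 calls, with Onecut2 at -0.58 (adjusted p = 0.0328). Deviations of samples with the same number correlated at 0.122, 0.036 and 0.083, and 5 of 6 samples correlated best with their own number. These values do not settle whether the numbers pair the samples, and the main fit did not pair them. As a random block, the scan had a consensus correlation of 0.566 and left the calls of all 7 tested members as they were.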
